A study of Mus musculus with 20 samples.

Results

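Cytosolic ribosomal protein genes encode the proteins of the cytoplasmic ribosome. They were taken from the deposited table by name (Rps or Rpl and a number, Rplp0 to Rplp2, Rpsa and Fau, without Rpl3 and Rpl3l), with a minimum of 1 CPM (reads of a gene in every 1000000 reads of its library) in at least 5 of 20 libraries. Of the 17415 genes in the table, 84 carried such a name and 81 reached the minimum: 34 of the small and 47 of the large subunit. The other 3, Rpl39l, Rpl6l and Rps12l1, averaged 0.423, 0.432 and 0.499 CPM. The table annotates 80 of the 81 as protein coding, and Rps4l as a transcribed processed pseudogene. The members lie on 20 chromosomes.

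RNA-seq was performed on mouse quadriceps 7 days after transection of the anterior cruciate ligament (ACLT) in a single hind limb, with the opposite limb as control. The 4 groups of 5 libraries were GDF8 Ab ACLT, GDF8 Ab control, PLA Ab ACLT and PLA Ab control, where GDF8 Ab is a human antibody (REGN647) against GDF8, or myostatin, a secreted inhibitor of muscle growth, and PLA Ab is a placebo antibody (REGN1945), both injected subcutaneously. Antibody-treated mice were C57BL/6J or Col1-eGFP adults of both sexes, and the sample labels give neither strain nor sex for a library. The control limb was not operated on and came from an injured, antibody-treated mouse, so every group shares an injured animal and an injected antibody. Limbs with the same number were taken as the limbs of the same mouse, which the labels do not state.

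Each ribosome holds 1 copy of nearly every one of these proteins, and ribosomal proteins left out of ribosomes are degraded. Cells usually make the mRNAs of these proteins together. In vertebrates those mRNAs begin with a pyrimidine stretch, the terminal oligopyrimidine (TOP) tract, through which the growth kinase complex mTORC1 and the protein LARP1 set how much of the mRNA is translated. Growing muscle adds ribosomes, and myostatin is known to restrain mTORC1 signalling in muscle fibres. RNA-seq of whole tissue reads mRNA level only, not its translation or the number of ribosomes.

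The start of the transcript is shown for 10 members, because it is the sequence element that this family shares and the rule did not use. RefSeq promoter windows on GRCm38.p6 were matched by symbol for 61 of the 81 members, with 72 windows of 300 bases. Each line below gives 30 bases, 15 before the annotated start and 15 from it on, and capitals mark the unbroken run of C and T that holds the start base. The first 6 have a run of at least 8 bases, and the last 4 have no run at their annotated start.
Rpl7a, GRCm38 chr2:26910792-26910821, plus strand: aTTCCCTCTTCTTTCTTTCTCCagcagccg
Fau, GRCm38 chr19:6057932-6057961, plus strand: tgcgcgcccccaCTTCTTCCTCTTTCTTga
Rps10, GRCm38 chr17:27635230-27635259, minus strand: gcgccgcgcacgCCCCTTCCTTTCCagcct
Rpl28, GRCm38 chr7:4792950-4792979, plus strand: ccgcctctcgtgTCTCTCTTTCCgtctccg
Rps6, GRCm38 chr4:86857353-86857382, minus strand: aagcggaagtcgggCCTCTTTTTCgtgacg
Rps9, GRCm38 chr7:3704026-3704055, plus strand: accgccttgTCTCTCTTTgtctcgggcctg
Rpl41, GRCm38 chr10:128549154-128549183, minus strand: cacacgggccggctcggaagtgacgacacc
Rpl12, GRCm38 chr2:32961697-32961726, plus strand: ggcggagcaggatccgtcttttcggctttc
Rps12, GRCm38 chr10:23787195-23787224, minus strand: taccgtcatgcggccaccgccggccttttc
Rpl5, GRCm38 chr5:107900513-107900542, plus strand: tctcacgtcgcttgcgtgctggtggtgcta

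A run of at least 8 pyrimidines over the start was present in 18 of 72 member windows (25%), each of a different gene, against 3.86% of all 32851 mouse windows of this length. The longest held 21 bases (Rpl7a). Annotated starts can lie some bases from the true start, so a window without a run says only that these letters are not there at that base. Both strands of the windows were also read for 4 short motifs, none of which is part of another. CCGGAAG or its complement CTTCCGG, the core bound by ETS factors, stood in 36.1% of member windows against 8.86% of all, and AAGATGGC or GCCATCTT, the core of YY1 sites, in 12.5% against 2.75%. GGGCGG or CCGCCC, the GC box, was present in 62.5% against 35.7%, and TATAAA or TTTATA, the TATA box, in 9.72% against 13.6%.

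The members took between 1.05% and 2.45% of a library. In GDF8 Ab ACLT libraries 1 to 5 the share was 1.42%, 1.42%, 1.31%, 1.29% and 1.35%, against 1.30%, 1.38%, 1.05%, 1.23% and 1.19% in GDF8 Ab control libraries 1 to 5. In PLA Ab ACLT libraries 1 to 5 it was 1.49%, 1.66%, 1.23%, 2.04% and 2.45%, against 1.38%, 1.68%, 1.08%, 1.24% and 1.34% in PLA Ab control libraries 1 to 5. PLA Ab ACLT libraries 4 and 5 stood above all 18 other libraries, and library 3 of each group was the lowest of its group except in GDF8 Ab ACLT limbs. The mean share was 1.36% ± 0.0639 in GDF8 Ab ACLT, 1.23% ± 0.126 in GDF8 Ab control, 1.77% ± 0.480 in PLA Ab ACLT and 1.34% ± 0.222 in PLA Ab control limbs (SD, n = 5 each). The difference between ACLT and control limbs was 0.426 percentage points ± 0.237 (SE) with PLA Ab and 0.124 ± 0.0631 with GDF8 Ab. Taken over the 5 limb pairs, the SE was 0.221 with PLA Ab, where 4 of 5 differences were above 0, and 0.0397 with GDF8 Ab, where all 5 were. Without PLA Ab ACLT libraries 4 and 5 the PLA Ab difference was 0.111 percentage points.

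**Figure D1:**
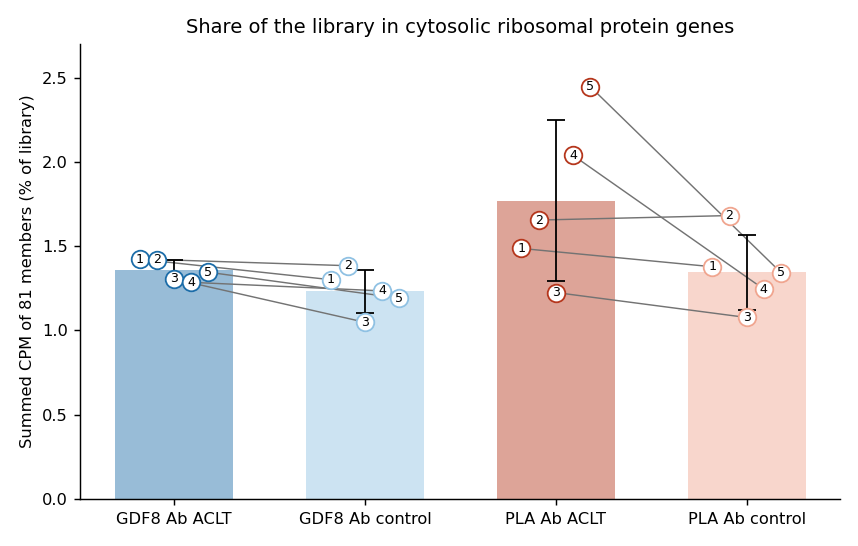
Summed CPM of the 81 members as percent of each library (y axis) in the 4 groups (x axis). Bars are means, error bars SD over 5 libraries, numbered circles single libraries, and grey lines join limbs with the same number. PLA Ab ACLT libraries 4 and 5, at 2.04% and 2.45%, lie above every other library, and the GDF8 Ab ACLT libraries lie between 1.29% and 1.42%.

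Both subunits shared this pattern. Small-subunit members took 0.573% ± 0.0289 of GDF8 Ab ACLT, 0.520% ± 0.0531 of GDF8 Ab control, 0.755% ± 0.211 of PLA Ab ACLT and 0.567% ± 0.0952 of PLA Ab control libraries (SD, n = 5 each). Large-subunit members took 0.783% ± 0.0353 of GDF8 Ab ACLT, 0.712% ± 0.0728 of GDF8 Ab control, 1.02% ± 0.269 of PLA Ab ACLT and 0.778% ± 0.127 of PLA Ab control libraries (SD, n = 5 each).

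The libraries held an estimated 15590000 to 24234000 reads, read from the smallest steps between low CPM values. At that depth 3 reads are 0.124 to 0.192 CPM, under the lowest value of all members but Rps4l by a factor of over 10. Y-linked genes were expressed in 6 libraries, those of PLA Ab mice 1 and 3 and GDF8 Ab mouse 3, and both limbs of all 10 numbered pairs gave the same call. Library 3 of every group was thus among these 6, and PLA Ab ACLT libraries 4 and 5 were not. PLA Ab library 1 of each limb was also among them and was not the lowest of its group. Sex was therefore unequal between the antibodies, and its part in the share was not tested. The 14 markers of mature muscle fibres summed to between 129952 and 233873 CPM, so quadriceps fibres were present in every library.

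The members moved as a block from library to library. Of the 81 members, 77 had their highest value of all 20 libraries in PLA Ab ACLT library 5, and 76 had their lowest in either GDF8 Ab control library 3 (53 members) or PLA Ab control library 3 (23 members). Within groups, a typical tested member varied with an SD of 0.257 on the log2(CPM + 1) scale, against 0.200 for the other 7857 tested genes. Once each library's median member was subtracted, that SD was 0.0799 for the members, against 0.256 for the other genes. The subtracted median is taken from the members, so part of this contrast is built in. Since the members move together, counts of members that share a direction are not counts of separate observations. The most tightly held were Rpl11 (SD 0.0453), Rplp1 (0.0462) and Rpl13 (0.0486). The loosest were Rps4l (0.466), Rps29 (0.336), Rps28 (0.214), Rpl12 (0.191) and Rpl38 (0.189).

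**Figure D2:**
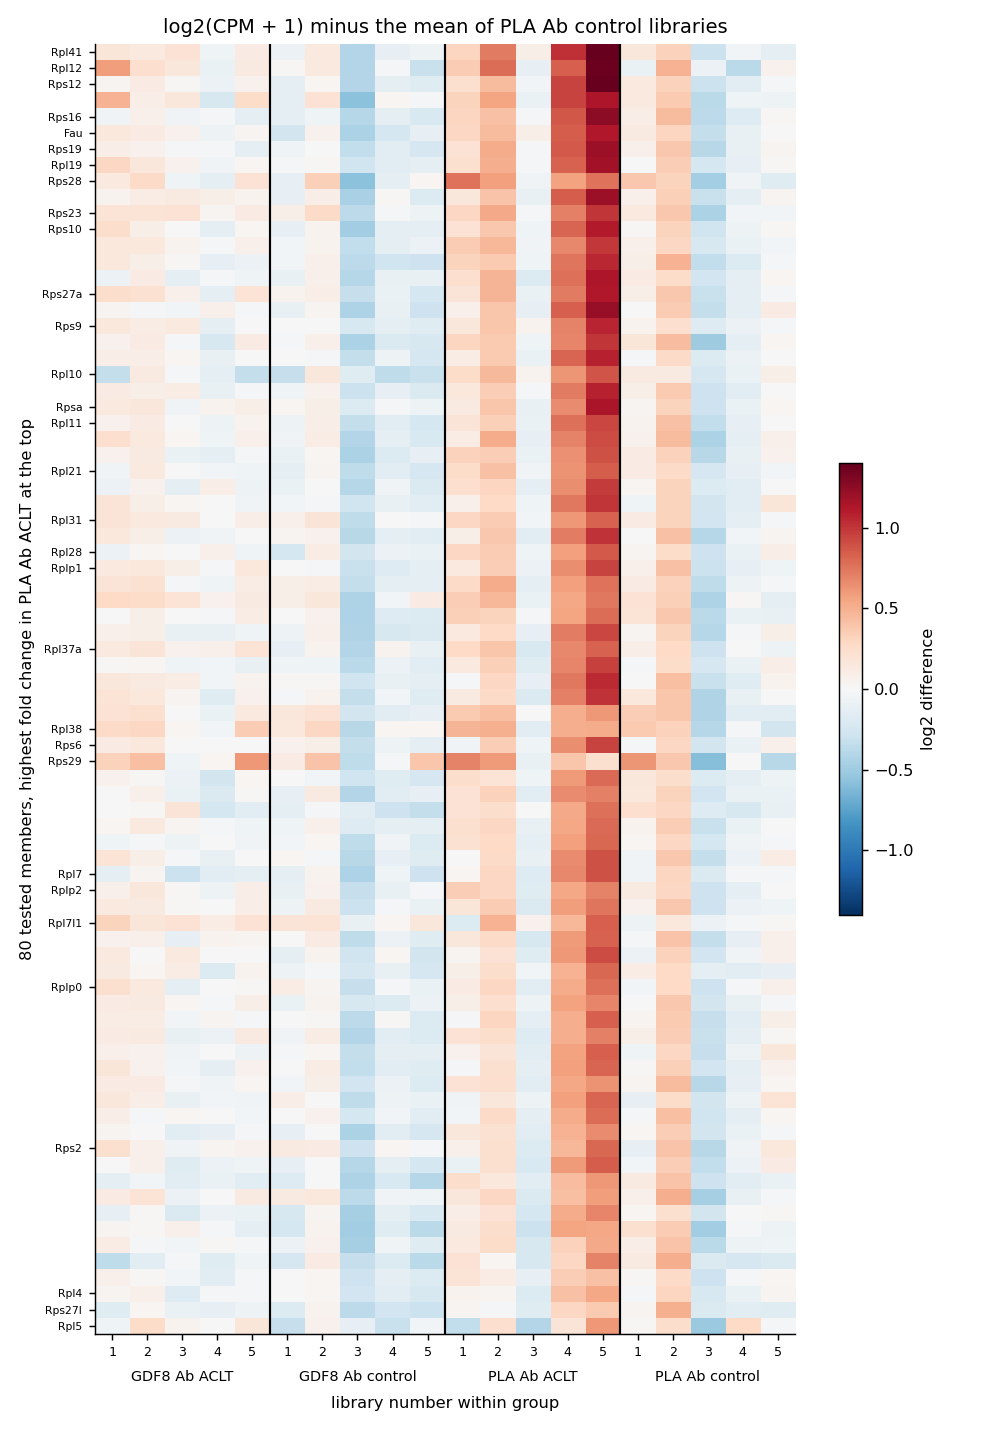
Heatmap of the 80 tested members (rows, ordered by fold change in PLA Ab ACLT against PLA Ab control) in 20 libraries (columns). Colour is log2(CPM + 1) minus the member's mean over PLA Ab control libraries, from blue (lower) to red (higher). Columns are near uniform down the page, with PLA Ab ACLT libraries 4 and 5 red in nearly every row and library 3 of both control groups and of PLA Ab ACLT pale to blue. A selection of rows is named, and Rps29 breaks the column pattern.

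Differences between groups were tested with limma over the 7937 genes that reached 10 CPM in 5 or more libraries. All members but Rps4l entered, and Rpl12 entered with exactly 5 libraries at that level, 4 of them ACLT libraries, so it passed mainly through the limbs in which it was high. A member was called where the Benjamini-Hochberg adjusted p over all tested genes of a comparison was under 0.05.

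In PLA Ab-treated mice, ACLT quadriceps had more ribosomal protein mRNA than control quadriceps for 16 of 80 members (20%), and none was called lower. That share is near the background, since 18.5% of all tested genes were called higher. The fitted log2 fold change was above 0 for all 80 members, with a median of 0.38 against 0.12 over all tested genes and a range of 0.05 to 0.72. At an unadjusted p under 0.05 the count was 58 of 80. No share of all tested genes at that limit is set beside it, so it is no result about the members. Among the 16 called were, in falling order of fold change, Rpl41, Rpl12, Rps12, Rps16, Fau, Rps19, Rpl19, Rps28, Rps23, Rps10, Rps9, Rpl10, Rpl21, Rpl31 and Rpl28. By subunit the called members were 9 of 33 small and 7 of 47 large, with median log2 fold changes of 0.40 and 0.38.

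The call depended on how mice, libraries and scaling were treated. With mouse as a replicate block, 52 members were called higher, against a background of 27.5%. With only the groups compared in the fit, 0 were called. With median-of-ratios factors in place of the deposited scaling, 2 were called (Rpl41 and Fau), against a background of 11.7%. That scaling lowered the median of all tested genes by 0.26 on the log2 scale and turned the fold change of 10 members below 0, while the members' median stayed 0.26 above that of all genes, against 0.27 with the deposited scaling. Without PLA Ab ACLT libraries 4 and 5, 0 members were called (3 at an unadjusted p under 0.05), and the median was 0.13 against 0.03 over all genes. Leaving out PLA Ab ACLT library 1, 2, 3, 4 or 5 alone gave 47, 7, 69, 0 and 1 called members, and leaving out PLA Ab control library 2, 3, 4 or 5 alone gave 43, 1, 3 and 7. These leave-out counts have no share of all tested genes beside them. They show how far the calls moved and nothing particular to the members.

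The difference between limbs was uneven between mice. The median log2 difference over 81 members between the ACLT and the control limb was 0.11, -0.01, 0.20, 0.72 and 0.85 in PLA Ab mice 1 to 5. In mouse 5 all 81 members were higher in the ACLT limb, in mouse 4 80 were, in mouse 3 79, in mouse 1 69 and in mouse 2 36. No member had all 5 PLA Ab ACLT libraries above all 5 PLA Ab control libraries, against 6.7% of all tested genes, while 32 of 80 (40.0%) were higher in the ACLT limb of all 5 mice, against 21% of all tested genes. Because the members move as a block, these counts rest on 5 mice and not on separate members.

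**Figure D3:**
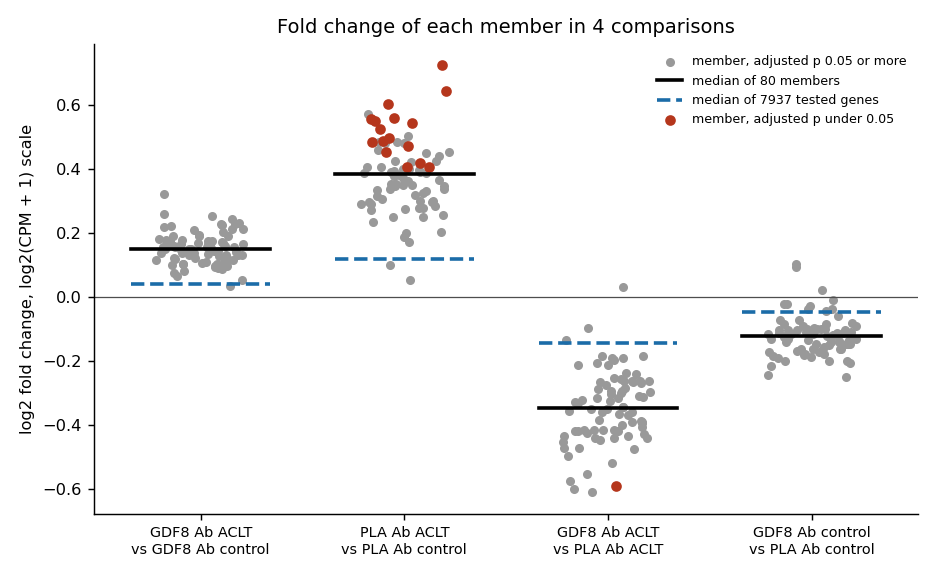
log2 fold change of each of 80 tested members (y axis) in 4 comparisons (x axis), each point a member, red where called. Black lines are the members' medians and blue dashed lines the medians of all 7937 tested genes. The members' median lies above that of all genes in both ACLT against control comparisons (0.15 against 0.04 with GDF8 Ab, 0.38 against 0.12 with PLA Ab) and below it in both antibody comparisons.

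Rpl41, the shortest protein of the large subunit, had the highest fold change. It stood at 207, 278, 178, 342 and 469.8 CPM in PLA Ab ACLT libraries 1 to 5, against 188, 209.8, 135, 163 and 152 CPM in PLA Ab control libraries 1 to 5. Libraries 2, 4 and 5 of the ACLT limbs lay above every control library and the groups overlapped in the other 2. The log2 fold change was 0.72 ± 0.19 (SE, limma adjusted p = 0.0156).

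Fau, which encodes the small-subunit protein eS30 fused to a ubiquitin-like protein, had 118, 132, 103, 175 and 211 CPM in PLA Ab ACLT libraries 1 to 5, against 106, 119, 76.6, 90.0 and 96.9 CPM in PLA Ab control libraries 1 to 5. Its ACLT limb was higher in all 5 mice, and the log2 fold change was 0.56 ± 0.16 (SE, limma adjusted p = 0.0207). Rps27a, made as a fusion with ubiquitin itself, had 143, 176, 118, 209 and 275 CPM in PLA Ab ACLT libraries 1 to 5, against 134, 164, 101, 115 and 125 CPM in PLA Ab control libraries 1 to 5, and its log2 fold change of 0.48 ± 0.17 (SE, limma adjusted p = 0.0561) was not called.

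Rps19, the gene most often mutated in human Diamond-Blackfan anaemia, had 116, 144, 98.5, 184 and 232 CPM in PLA Ab ACLT libraries 1 to 5, against 106, 131, 76.4, 93.4 and 103 CPM in PLA Ab control libraries 1 to 5. The log2 fold change was 0.55 ± 0.18 (SE, limma adjusted p = 0.0346). Over the 18 members mutated in that human disease, 4 were called higher, where 20% of all tested members and 18.5% of all tested genes were. Their median was 0.38, the same as over all members, against 0.12 over all tested genes.

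Rps9, a structural protein of the small subunit, had 231, 271, 215, 334 and 433 CPM in PLA Ab ACLT libraries 1 to 5, against 215, 243, 182, 195 and 204 CPM in PLA Ab control libraries 1 to 5, and its log2 fold change was 0.47 ± 0.14 (SE, limma adjusted p = 0.0264). Its ACLT libraries 2, 4 and 5 lay above all controls, and libraries 1 and 3 lay among them. The large-subunit proteins Rpl19 and Rpl21 changed by 0.54 ± 0.16 (SE, limma adjusted p = 0.0278) and 0.42 ± 0.13 (SE, limma adjusted p = 0.0315), with 3 of 5 ACLT libraries above all controls for each. Rps12 had 151, 177, 126, 249 and 354 CPM in PLA Ab ACLT libraries 1 to 5, against 143, 162, 105, 116 and 128 CPM in PLA Ab control libraries 1 to 5, and its log2 fold change was 0.60 ± 0.20 (SE, limma adjusted p = 0.0374).

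The lateral stalk of the large subunit, which recruits elongation factors, is built of Rplp0, Rplp1, Rplp2 and, at its base, Rpl12. Rplp0, among the members of highest mean CPM, had 623, 701, 516, 822 and 979.8 CPM in PLA Ab ACLT libraries 1 to 5, against 558, 697, 469.6, 569 and 604 CPM in PLA Ab control libraries 1 to 5, with a log2 fold change of 0.31 ± 0.14 (SE, limma adjusted p = 0.122). Rplp1 and Rplp2 had log2 fold changes of 0.40 ± 0.15 (SE, limma adjusted p = 0.0674) and 0.34 ± 0.13 (SE, limma adjusted p = 0.0714). Rpl12 had 9.79, 13.5, 6.77, 14.0 and 20.8 CPM in PLA Ab ACLT libraries 1 to 5, against 6.88, 10.9, 6.95, 5.50 and 7.82 CPM in PLA Ab control libraries 1 to 5, and was the stalk member called, at 0.64 ± 0.22 (SE, limma adjusted p = 0.0477). The table holds 83 rows of ribosomal protein pseudogenes, and reads that fit a gene and its processed copies can be split or lost in counting, so levels of single members, low ones such as Rpl12 and Rpl5 above all, are uncertain.

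Rpl5 and Rpl11 carry the 5S ribosomal RNA into the large subunit and, outside the ribosome, bind the p53 regulator Mdm2. Rpl5 had 13.9, 21.2, 13.3, 20.4 and 27.8 CPM in PLA Ab ACLT libraries 1 to 5, against 18.1, 21.4, 12.2, 21.9 and 17.7 CPM in PLA Ab control libraries 1 to 5. The ACLT limb was higher in 2 of 5 mice, and the log2 fold change of 0.05 ± 0.17 (SE, limma adjusted p = 0.85) was the lowest of all members. Rpl11 had 167, 187, 139, 254 and 284 CPM in PLA Ab ACLT libraries 1 to 5, against 153, 198, 116, 137 and 148 CPM in PLA Ab control libraries 1 to 5, with a log2 fold change of 0.43 ± 0.16 (SE, limma adjusted p = 0.0638).

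Rps6, the substrate of S6 kinase downstream of mTORC1, had 192, 253, 189.9, 311 and 382 CPM in PLA Ab ACLT libraries 1 to 5, against 196, 243, 166, 186 and 209 CPM in PLA Ab control libraries 1 to 5, and Rpsa, also known as the laminin receptor, 402, 483, 343, 583 and 812 CPM in PLA Ab ACLT libraries 1 to 5, against 379, 459, 302, 346 and 375 CPM in PLA Ab control libraries 1 to 5. Their log2 fold changes were 0.37 ± 0.16 (SE, limma adjusted p = 0.0947) and 0.44 ± 0.16 (SE, limma adjusted p = 0.0609), and neither was called. Rps2, of the messenger RNA entry channel, and Rpl4, of the peptide exit tunnel, were with Rplp0 the members of highest mean CPM, and had log2 fold changes of 0.27 ± 0.16 (SE, limma adjusted p = 0.21) and 0.17 ± 0.12 (SE, limma adjusted p = 0.312).

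In 3 families both paralogs were tested members. Rpl22 and Rpl22l1 had fold changes of 0.30 ± 0.13 (SE, limma adjusted p = 0.0957) and 0.20 ± 0.16 (SE, limma adjusted p = 0.365) on the log2 scale, Rpl7 and Rpl7l1 of 0.34 ± 0.16 (SE, limma adjusted p = 0.13) and 0.33 ± 0.13 (SE, limma adjusted p = 0.0813), and Rps27 and Rps27l of 0.23 ± 0.16 (SE, limma adjusted p = 0.288) and 0.10 ± 0.12 (SE, limma adjusted p = 0.581). Rps27l, a p53 target in human cells, had 64.2, 61.4, 55.3, 76.4 and 80.6 CPM in PLA Ab ACLT libraries 1 to 5, against 64.0, 88.2, 53.9, 55.9 and 55.4 CPM in PLA Ab control libraries 1 to 5. Of other members with a paralog, Rpl36a, Rpl39 and Rps4x had log2 fold changes of 0.43 ± 0.17 (SE, limma adjusted p = 0.0803), 0.57 ± 0.20 (SE, limma adjusted p = 0.051) and 0.48 ± 0.17 (SE, limma adjusted p = 0.053). None of these 9 was called. Rpl10, which joins the large subunit last and has the testis paralog Rpl10l, had 93.0, 107, 79.9, 119 and 143 CPM in PLA Ab ACLT libraries 1 to 5, against 84.5, 84.6, 65.9, 72.3 and 81.7 CPM in PLA Ab control libraries 1 to 5, and was called at 0.45 ± 0.14 (SE, limma adjusted p = 0.03). Rps4l, under 10 CPM and not tested, was listed at 1.43, 5.32, 2.31, 5.78 and 13.4 CPM in PLA Ab ACLT libraries 1 to 5, against 1.27, 1.28, 0.833, 0.706 and 1.65 CPM in PLA Ab control libraries 1 to 5, with PLA Ab ACLT libraries 2 to 5 above every control library.

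**Figure D4:**
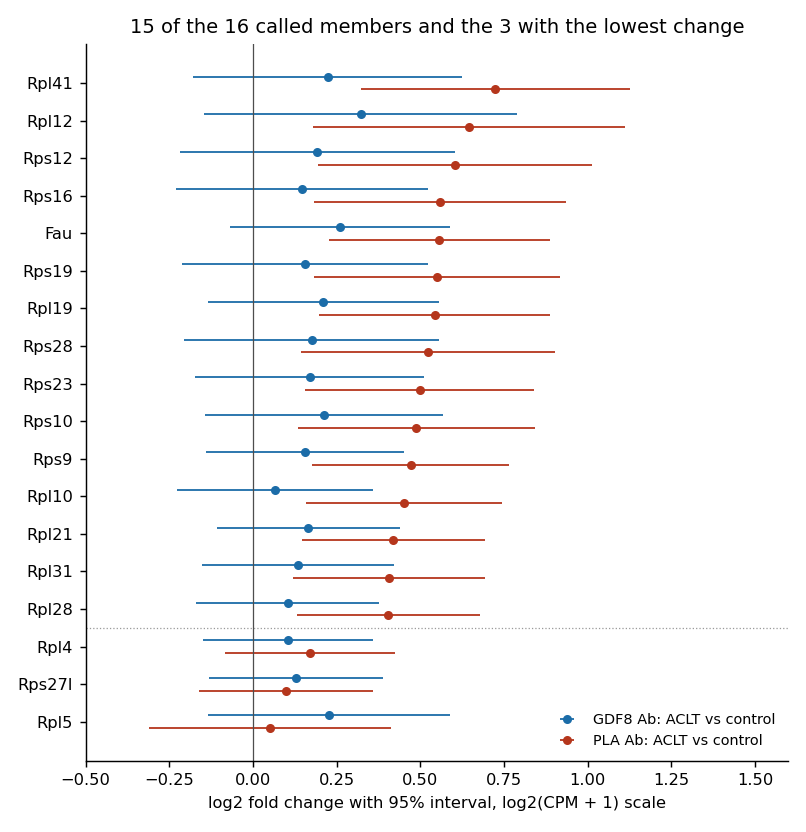
log2 fold change (x axis) of ACLT against control limbs for 15 of the 16 members called with PLA Ab and, below the dotted line, the 3 members with the lowest change. Points are limma estimates and lines 95% intervals, blue for GDF8 Ab and red for PLA Ab. All red intervals above the dotted line exclude 0, which the choice of members by their call fixed in advance. All blue intervals include 0, and the interaction of antibody and injury called no member.

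To ask which members departed from the rest, the median member of each library was subtracted from every gene before the fit. In PLA Ab ACLT against PLA Ab control limbs 3 of 80 members were then called. On this scale 32.9% of all tested genes were called. That share is no background for the members, since the subtraction centres them near 0 and shifts every other gene. Rpl41 rose by 0.33 ± 0.11 (SE, limma adjusted p = 0.0286) relative to the median member. Rps27l (log2 -0.29 ± 0.10 (SE, limma adjusted p = 0.0337)) and Rpl5 (-0.34 ± 0.12 (SE, limma adjusted p = 0.0434)) fell relative to it. With mouse as a replicate block, 7 were called, Rps12 also higher and Rpl4, Rpl24 and Rpl36 also lower, and without PLA Ab ACLT libraries 4 and 5, 0 were called (2 at an unadjusted p under 0.05). Leaving out PLA Ab ACLT library 2, 3, 4 or 5 alone gave 1, 6, 0 and 0, and leaving out PLA Ab control library 3, 4 or 5 gave 0, 1 and 1. In the other 4 comparisons limma called 0 members relative to the median member, with 5 at an unadjusted p under 0.05 in GDF8 Ab ACLT against PLA Ab ACLT limbs, 1 in the interaction and 0 in the other 2. In GDF8 Ab ACLT against PLA Ab ACLT limbs 1.45% of all tested genes were called on this scale.

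Rps29, Rps28 and Rpl38, small ribosomal proteins, did not follow the other members between PLA Ab ACLT libraries. Rps29 had 159, 148, 91.3, 129 and 115 CPM in PLA Ab ACLT libraries 1 to 5, against 150.5, 128, 64.3, 97.2 and 74.5 CPM in PLA Ab control libraries 1 to 5, so that library 1 and not library 5 was highest in the ACLT limbs. Rpl38 had 90.8, 92.0, 58.7, 92.9 and 93.5 CPM in PLA Ab ACLT libraries 1 to 5, against 83.8, 81.4, 49.1, 63.5 and 54.1 CPM in PLA Ab control libraries 1 to 5, and its 4 upper ACLT libraries lay within 3 CPM of each other. Rps28 stood at 90.1, 79.0, 50.8, 78.3 and 89.8 CPM in PLA Ab ACLT libraries 1 to 5, against 68.7, 65.7, 37.6, 50.7 and 46.8 CPM in PLA Ab control libraries 1 to 5, and was called at 0.52 ± 0.18 (SE, limma adjusted p = 0.0483).

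Members with and without a pyrimidine run over the annotated start had near-equal median changes. The 18 members with a run of at least 8 bases had a median log2 fold change of 0.39 (0.23 to 0.56), against 0.39 (0.05 to 0.72) for the 43 with a window and no such run. Annotated starts can miss the true start, so a member without a run here can still have a TOP tract. A link between TOP tracts and the change was therefore not tested. Of the 16 called members 14 had a window, and 4 of these, the Fau, Rps10, Rpl28 and Rps9 starts printed above, had a run.

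In GDF8 Ab-treated mice, 0 of 80 members were called between ACLT and control limbs by limma, also 0 at an unadjusted p under 0.05, where 0.0252% of all tested genes (2 genes) were called. These p-values rest on a spread pooled over all 4 groups. The median member varied less in the GDF8 Ab groups than in the PLA Ab groups. The fitted log2 fold change was above 0 for all 80, with a median of 0.15 against 0.04 over all genes and a range of 0.03 to 0.32. With median-of-ratios factors 4 of the 80 lay below 0 and the median was 0.07. The difference was small: the median log2 difference between limbs was 0.14, 0.04, 0.32, 0.06 and 0.18 in GDF8 Ab mice 1 to 5. Of the 80 members, 44 (55.0%) were higher in the ACLT limb of all 5 mice, against 10.4% of all tested genes. The members move as a block, so this count rests on 5 mice and not on 44 separate observations. One member, Rpl37a, of the large subunit, had groups that did not overlap, against 1.13% of all tested genes. It had 127, 131, 121, 122 and 132 CPM in GDF8 Ab ACLT libraries 1 to 5, against 107, 119.7, 86.5, 119 and 108 CPM in GDF8 Ab control libraries 1 to 5, with a log2 fold change of 0.23 ± 0.15 (SE).

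Single members showed the same small differences. Rpl41 had 189, 185, 192, 160.2 and 182 CPM in GDF8 Ab ACLT libraries 1 to 5, against 158, 184, 125, 155 and 159 CPM in GDF8 Ab control libraries 1 to 5, with a log2 fold change of 0.22 ± 0.19 (SE). Fau had 107, 105, 101, 91.6 and 99.6 CPM in GDF8 Ab ACLT libraries 1 to 5, against 80.6, 101, 71.0, 81.2 and 89.0 CPM in GDF8 Ab control libraries 1 to 5, with 0.26 ± 0.16 (SE). The groups overlapped in each. Rpl12 had the highest fold change, 0.32 ± 0.22 (SE), and Rpl7 the lowest, 0.03 ± 0.16 (SE). Rpl5 had 17.2, 21.7, 18.6, 17.8 and 20.3 CPM in GDF8 Ab ACLT libraries 1 to 5, against 14.1, 18.7, 16.4, 14.2 and 17.4 CPM in GDF8 Ab control libraries 1 to 5, and its ACLT limb was higher in all 5 mice (0.23 ± 0.17 (SE)).

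In ACLT limbs, GDF8 Ab-treated mice had less Rpl10 mRNA than PLA Ab-treated mice, the 1 of 80 members called lower, against 6.32% of all tested genes. The 44 members at an unadjusted p under 0.05 had adjusted p of 0.0502 (Rps16) and above apart from Rpl10. No share of all tested genes at that limit is set beside the 44. This comparison uses the same PLA Ab ACLT libraries as the one between limbs, so the 2 are not independent. The fitted log2 fold change was below 0 for 79 of 80 members, with a median of -0.35 against -0.14 over all tested genes. With median-of-ratios factors 68 lay below 0 and the median was -0.11, against 0.08 over all genes. Without PLA Ab ACLT libraries 4 and 5, 0 members were called by limma (1 at an unadjusted p under 0.05), and the median was -0.10. Leaving out PLA Ab ACLT library 1 or 3 alone gave 34 and 61 called members, and leaving out PLA Ab ACLT library 4 or 5, or GDF8 Ab ACLT library 1, 2, 4 or 5, gave 0 each. Here too no share of all tested genes is set beside the leave-out counts, which show only how far the calls moved.

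Rpl10 had 61.0, 84.7, 76.7, 70.8 and 61.4 CPM in GDF8 Ab ACLT libraries 1 to 5, against 93.0, 107, 79.9, 119 and 143 CPM in PLA Ab ACLT libraries 1 to 5. Library 2 of the GDF8 Ab ACLT limbs lay inside the range of the PLA Ab ACLT limbs and the other 4 lay below it. The log2 fold change was -0.59 ± 0.14 (SE, limma adjusted p = 0.0359), with an adjusted p of 0.0425 with mouse as a replicate block and 0.0499 with median-of-ratios factors. It was 0.216, with no call, when only the groups compared were fitted. Groups overlapped for every member, against 3.18% of all tested genes with all GDF8 Ab ACLT libraries below all PLA Ab ACLT libraries. Rps16, a small-subunit protein near the decoding site, had 112, 121, 112, 114 and 105 CPM in GDF8 Ab ACLT libraries 1 to 5, against 143, 154, 113, 212 and 277 CPM in PLA Ab ACLT libraries 1 to 5, with a log2 fold change of -0.60 ± 0.18 (SE, limma adjusted p = 0.0502). Rpl41 fell short of a call at -0.61 ± 0.19 (SE, limma adjusted p = 0.0533), as did Fau at -0.50 ± 0.16 (SE, limma adjusted p = 0.0533) and Rps19 at -0.55 ± 0.18 (SE, limma adjusted p = 0.0536). Rpl5 was the member whose fold change was above 0, at 0.03 ± 0.17 (SE, limma adjusted p = 0.914).

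In control limbs, GDF8 Ab and PLA Ab mice differed in 0 of 80 members by limma, 0 at an unadjusted p under 0.05, and the background was 0% of all tested genes. The median log2 fold change was -0.12 against -0.05 over all genes, and 77 of 80 lay below 0. With median-of-ratios factors it was -0.08 against -0.01, and 70 lay below 0. Rps29 (log2 difference from the median member 0.23), Rpl7l1 (0.22) and Rpl38 (0.14) departed most from the other members, with no call. Rpl7l1 had 32.7, 33.1, 26.8, 29.5 and 32.4 CPM in GDF8 Ab control libraries 1 to 5, against 27.4, 32.1, 27.1, 28.5 and 29.2 CPM in PLA Ab control libraries 1 to 5. The injury effect did not differ between antibodies past the threshold for any member: the interaction gave 0 of 80 by limma, 0 at an unadjusted p under 0.05, against 0% of all genes. Its median was -0.23 against -0.08 over all genes. It was -0.04 against 0.10 with median-of-ratios factors, where 52 of 80 lay below 0, and 0.029 without PLA Ab ACLT libraries 4 and 5. For Rpl41 the interaction was -0.50 ± 0.27 (SE, limma adjusted p = 0.442), with a 95% interval of -1.07 to 0.07.

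Transcripts per gene were compared per length, as CPM per kilobase of the median protein-coding transcript in GENCODE M21. Over 80 members the median was 224 CPM per kilobase, with quartiles of 159 and 301. Rplp1, present in more than 1 copy per ribosome, was highest at 687, followed by Rps2 at 580 and Rplp0 at 453. Rpl12 and Rpl5 were lowest at 7.29 and 8.91 CPM per kilobase. Rpl12 protein is as abundant in ribosomes as the others, and the pseudogene limit above applies to both genes.

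Other parts of the translation machinery were read from lists in PLA Ab ACLT against PLA Ab control limbs, where 18.5% of all tested genes were called higher and their median log2 fold change was 0.12. Of 38 initiation factors 4 were called higher (10.5%, under that background), with a median log2 fold change of 0.09, the helicase Eif4a1 the most at 0.96 ± 0.24 (SE, limma adjusted p = 0.0114). Of 8 elongation factors Eef1a1, the tRNA carrier of most tissues, was the 1 called, at 1.92 ± 0.38 (SE, adjusted p = 0.00437). Eef1a1 had 387, 915, 415, 1585 and 2451 CPM in PLA Ab ACLT libraries 1 to 5, against 236, 301, 162, 245 and 256 CPM in PLA Ab control libraries 1 to 5. Eef1a2, the form of mature muscle fibres, had 1917, 1433, 1603, 1258 and 919.9 CPM in PLA Ab ACLT libraries 1 to 5, with libraries 4 and 5 lowest where the ribosomal protein genes were highest.

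Of 18 non-ribosomal genes with TOP mRNAs, a list that also holds Eef1a1, 5 were called higher (27.8%, against 18.5% of all tested genes), among them the poly(A)-binding protein Pabpc1 at 1.09 ± 0.25 (SE, adjusted p = 0.00772), with a median of 0.23. Of 52 tested ribosome biogenesis genes 8 were called higher (15.4%, under that background), with a median of 0.17 against 0.12 over all genes. Named by smallest p, these were Ubtf, the RNA polymerase I factor, at 0.43 ± 0.10 (SE, adjusted p = 0.0086), Rrp1, Imp4 and Npm1. Of 21 tested mTORC1 and growth regulators 2 were called higher (9.52%), Akt1 and the translation repressor Eif4ebp1, with a median of 0.13. Of 3 tested snoRNA host genes Gas5, itself a TOP transcript, was called higher at 0.54 ± 0.15 (SE, adjusted p = 0.0165). In GDF8 Ab ACLT against PLA Ab ACLT limbs, where 6.32% of all tested genes were called lower, Gas5 was called lower at -0.62 ± 0.15 (SE, adjusted p = 0.0359). Also called lower there were 3 of the 18 genes with TOP mRNAs, Vim, Eef1a1 (-1.41 ± 0.38 (SE, adjusted p = 0.0445)) and Pabpc1 (-0.91 ± 0.25 (SE, adjusted p = 0.0445)), and 2 of 52 biogenesis genes, Polr1d and Ubtf. Of 77 tested genes of the mitochondrial ribosome limma called 0 in any comparison, and the median log2 fold change was -0.03 in PLA Ab ACLT against PLA Ab control limbs and 0.00 in GDF8 Ab ACLT against GDF8 Ab control limbs.

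Markers of several other cell types were higher in PLA Ab ACLT limbs. The 18 macrophage and monocyte markers summed to 393, 826, 530.2, 1904 and 3012 CPM in PLA Ab ACLT libraries 1 to 5 and to between 42.6 and 129 CPM in PLA Ab control libraries, and 11 of 11 tested were called higher. They summed to between 117 and 431 CPM in GDF8 Ab ACLT and between 65.8 and 109 CPM in GDF8 Ab control libraries. The 12 fibroblast and matrix markers summed to 1347, 6917, 2284, 19965 and 27189 CPM in PLA Ab ACLT libraries 1 to 5 and to between 442 and 894 CPM in PLA Ab control libraries, with 11 of 12 called higher. The 10 satellite cell and regenerating fibre markers summed to 164, 1113, 155, 1085 and 1539 CPM in PLA Ab ACLT libraries and to between 71.2 and 86.5 CPM in PLA Ab control libraries, with 4 of 6 tested called higher. Proliferation markers summed to 48.2, 93.5, 61.0, 171 and 323 CPM in PLA Ab ACLT libraries, against 25.3 to 34.9 CPM in PLA Ab control libraries. In GDF8 Ab ACLT against PLA Ab ACLT limbs 10 of 11 tested macrophage and 4 of 6 tested regenerating fibre markers were called lower, while the 12 fibroblast markers had a median log2 fold change of -1.69 with no call. These counts of called markers are partly fixed by the filter of 10 CPM in 5 libraries. Cd68 had 12.3 to 64.6 CPM in PLA Ab ACLT libraries and at most 7.55 CPM in any other library. It was thus tested only because it was high in PLA Ab ACLT limbs.

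Libraries 4 and 5 of PLA Ab ACLT, with the highest ribosomal protein share, had the highest macrophage, fibroblast and proliferation sums and the lowest fibre sums. Outside these libraries the share and the sums ran together in part. PLA Ab control library 2 had the next highest share, 1.68%. Its 129 CPM of macrophage and 894 CPM of fibroblast markers were the highest sums of its group. PLA Ab control library 3 had the lowest share of that group, 1.08%, and the lowest sums, 42.6 and 442 CPM. Among GDF8 Ab control libraries the 2 measures parted. Library 5 had the highest sums of that group, 109 and 955 CPM, with a share of 1.19%, and library 2 the highest share, 1.38%, with 80.3 and 610 CPM. Across groups, PLA Ab ACLT library 2 had a share of 1.66%, near that of PLA Ab control library 2, with 826 and 6917 CPM. GDF8 Ab ACLT library 3 had the highest sums of its group, 431 and 3879 CPM, with a share of 1.31%. Fibre markers summed to 225964, 171402, 182565, 152399 and 129952 CPM in PLA Ab ACLT libraries 1 to 5, against 169588 to 207450 CPM in PLA Ab control libraries, and 0 of 14 were called by limma. Lymphocyte markers summed to under 9 CPM and neutrophil markers to under 14 CPM in every library, and none of either list was tested. The 7 tested endothelial and 4 tested erythroid markers gave 0 calls. In whole muscle, more cells of a type and more mRNA per cell cannot be told apart, and the part of these markers in the ribosomal protein result was not tested.

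**Figure D5:**
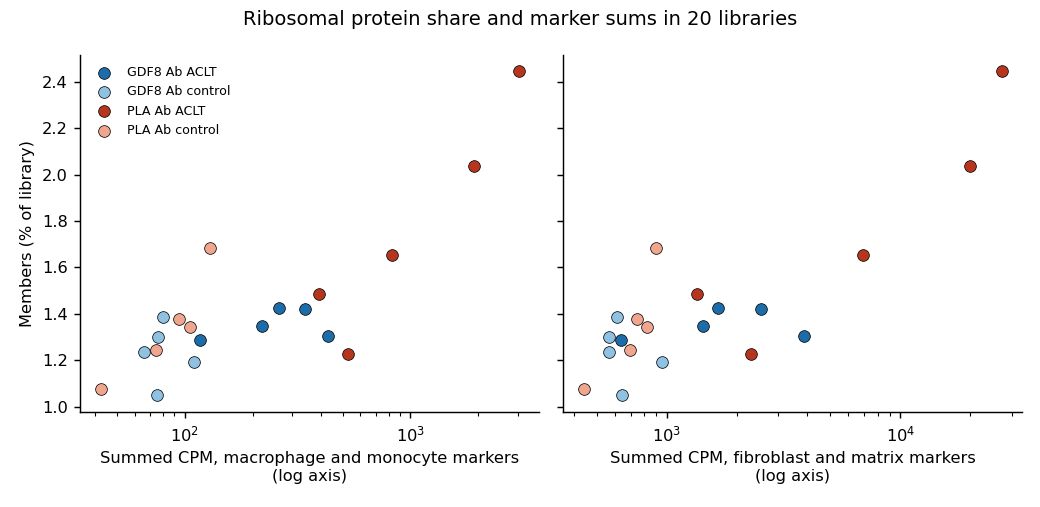
Share of the 81 members (y axis, percent of library) against the summed CPM of macrophage and monocyte markers (left, log axis) and of fibroblast and matrix markers (right, log axis). Each point is 1 of 20 libraries, coloured by group. The 2 points above 2% are PLA Ab ACLT libraries 4 and 5, which also have the highest sums of both lists.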

How the data were processed

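The deposited table holds CPM per gene for 20 libraries. The labels name STAR 2.7.3a, Partek and DESeq2 as the authors' tools, and the builds mm10 and mm39. Its gene starts equal those of GRCm38 for 480 of 17378 shared IDs, so no coordinates of it are printed. Each column sums to 1000000, so a value is relative to the other genes of its library. Only 72.6 to 78.7% of values between 0.03 and 3 CPM came out as whole reads (tolerance 0.02), so counts were not rebuilt and no count model was run. Depth was read from the same steps.

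Groups and numbers come from the sample labels. limma 3.58.1 (R 4.3.3) was fitted to log2(CPM + 1) of all 20 libraries with 4 group means and a mean-variance trend, on the 7937 genes that reached 10 CPM in 5 or more libraries, and p-values were Benjamini-Hochberg adjusted within each comparison (threshold 0.05). Fold changes on this scale understate those of low genes. A second fit first subtracted each library's median member. Medians and counts over lists have no test. The script was tested on simulated data with known changes. There genes varied independently, with the same spread in every group, unlike the members here. That test therefore does not vouch for the calls of members. Alternatives were another pseudocount, other filters, median-of-ratios factors, a mouse block, the compared groups alone, Y-linked expression as a covariate, array weights and libraries left out. Alternatives for the summed share were added after the data were seen.

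Replicate numbers were taken to pair limbs because the study operated 1 limb of each mouse. Residuals of same-numbered limbs correlated above 0.1 in 9 of 10 pairs (0.0387 in PLA Ab mouse 2), and 6 of 10 control limbs correlated best with the ACLT limb of their own number, with a fitted mouse correlation of 0.253. Another number correlated better in PLA Ab mice 2 (0.121 against 0.0387), 4 (0.520 against 0.264) and 5 (0.343 against 0.296). The same held in GDF8 Ab mouse 5 (0.214 against 0.135). The pairing was thus least clear in PLA Ab mice. p-values cover the spread between these animals, pooled over the 4 groups. That spread was unequal: the log2 SD of the median member was 0.370 in PLA Ab ACLT and 0.228 in PLA Ab control libraries. It was 0.0681 in GDF8 Ab ACLT and 0.155 in GDF8 Ab control libraries. The pooled spread is therefore too small for the PLA Ab comparison of limbs and too large for the GDF8 Ab one.

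Named members were those called (at most 8 by smallest p per comparison), the 3 highest and 3 lowest changes in PLA Ab mice, the 3 largest departures from the median member in each comparison, the 3 highest and 3 lowest mean CPM, and the stalk, 5S, ubiquitin fusion, paralog, Rps6, Rpsa and Rps19 members. Rps16, Rps28, Rpl28, Rps10, Rpl37a and Eef1a2 were added after their values were seen. Some items are not reported here. Members and lists were chosen with earlier results of these data known. Sequences are RefSeq promoter windows (GRCm38.p6), and no protein sequence was used here. Transcript lengths come from GENCODE M21 (basic set).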

Additional observations from a re-analysis of the deposited data

Results flagged for a closer look

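Of 156 groups of 5 libraries examined for a library far from the others (the summed share and 38 members in 4 groups, where chance gives about 1 in 20), 2 met the limit of 0.71 for the gap to the nearest library over the whole range. Rpl38 stood at 58.7 CPM in PLA Ab ACLT library 3, against 90.8 to 93.5 CPM in the other 4 libraries of that group. Rpl21 stood at 174 CPM in GDF8 Ab ACLT library 2, against 153 to 158 CPM in the other 4. No member's injury effect differed between antibodies past the threshold in limma's interaction test.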

How the results depend on the processing

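Calls in PLA Ab ACLT against PLA Ab control limbs moved: 16 members became 52 with mouse as a replicate block, 53 with Y-linked expression as covariate, 50 with array weights, 32 with at least 1 CPM in 5 libraries, 31 without a filter, 2 with median-of-ratios factors, 0 with only the groups compared, 0 without PLA Ab ACLT libraries 4 and 5, and 0 to 69 with 1 library left out. Relative to the median member 3 became 7 with the replicate block, 21 with array weights, 0 with only the groups compared, 0 without libraries 4 and 5, and 0 to 6 with 1 left out. The cause was not tested. Among these alternatives, shares of all tested genes are given above for the replicate block and median-of-ratios factors only. The other counts show how far the calls moved and are no result about the members. The median log2 fold change of 0.38 became 0.11 with median-of-ratios factors and 0.13 without libraries 4 and 5.

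In GDF8 Ab ACLT against PLA Ab ACLT limbs the 1 called member became 17 with at least 1 CPM, 16 without a filter, 60 with the Y-linked covariate, 33 with array weights, 0 with only the groups compared, 0 without PLA Ab ACLT libraries 4 and 5, and 0 to 61 with 1 library left out. The counts under these alternatives have no share of all tested genes beside them and are likewise no result about the members. The median of -0.35 became -0.11 with median-of-ratios factors and -0.10 without libraries 4 and 5. Relative to the median member 0 became 2 with the Y-linked covariate, 11 with array weights and 0 to 6 with 1 left out. The interaction median of -0.23 became -0.04 with median-of-ratios factors and 0.029 without libraries 4 and 5, and 5 members were called relative to the median member with array weights.

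The summed-share difference became 0.111 percentage points with PLA Ab and -0.0996 between antibodies in ACLT limbs without libraries 4 and 5. The replicate block changed no other count of members by over 1.5 times. In the GDF8 Ab comparison of limbs and between antibodies in control limbs, 0 members were called under every alternative run.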
